A study of Homo sapiens with 6 samples.

Results

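CD55 and 8 further complement genes (CD46, CD59, CFI, CFB, C3, C1R, C1S and CLU) were followed in U251 cells, an established human glioma line. They are 9 of the 19775 genes that have a probe set named for them alone, and all such probe sets were used, 23 of the 54613 on the array that are not controls. The set was chosen by the measured intensities of CD55, which were far higher in PARK2 arrays, so the values of CD55 are given as a description and carry no test. The other 8 genes were added for their role in complement, with results of these data already known. The PARK2 group (3 arrays) came from U251 cells that overexpressed PARK2, an E3 ubiquitin ligase, and the control group (3 arrays) from U251 cells that overexpressed GFP. Both were stable lines obtained by infection with viral particles in polybrene and selection in puromycin, and both were grown in DMEM with serum. Replicates are labelled biological, but separate cultures or infections are not mentioned, nor is it said whether a line was a clone or a pool. The p-values therefore measure only the spread between these arrays, which may be technical.

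Complement is a cascade of plasma and cell-surface proteins that tags cells for uptake or lyses them. C1R and C1S are the proteases of the C1 complex that start the classical pathway, C3 is the protein on which all pathways meet, and factor B (CFB) gives the protease of the alternative pathway's C3 convertase. Host cells carry membrane regulators. CD55, decay-accelerating factor, makes C3 convertases fall apart. CD46 is a cofactor with which factor I (CFI), a plasma protease, cuts deposited C3b and C4b, and CD59 stops the last step, the pore of the membrane attack complex. CD55 and CD59 are held in the membrane by a glycosylphosphatidylinositol (GPI) anchor, while CD46 spans it. Clusterin (CLU) is a secreted chaperone that also binds the terminal complex. Glioma and astrocyte lines are known to carry CD46, CD55 and CD59 and to secrete complement proteins.

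Promoter sequences are shown for the membrane regulators, of which CD55 differed most, CD46 lies near it on chromosome 1 and CD59 went the other way. RefSeq's promoter table (build GRCh38.p14) held 6 of the 9 members. Each sequence is the 250 bases before the first listed start, read 5′ to 3′ on the gene's strand: CD55 at chr1:207321428-207321677 (plus strand), CD46 at chr1:207751788-207752037 (plus strand) and CD59 at chr11:33736480-33736729 (minus strand). Capitals mark matches to the motifs searched.
CD55: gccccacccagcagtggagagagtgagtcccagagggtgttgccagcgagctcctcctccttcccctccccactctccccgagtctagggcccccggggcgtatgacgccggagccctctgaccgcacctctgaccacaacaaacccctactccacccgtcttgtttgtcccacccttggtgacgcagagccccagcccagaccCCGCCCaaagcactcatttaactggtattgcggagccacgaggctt
CD46: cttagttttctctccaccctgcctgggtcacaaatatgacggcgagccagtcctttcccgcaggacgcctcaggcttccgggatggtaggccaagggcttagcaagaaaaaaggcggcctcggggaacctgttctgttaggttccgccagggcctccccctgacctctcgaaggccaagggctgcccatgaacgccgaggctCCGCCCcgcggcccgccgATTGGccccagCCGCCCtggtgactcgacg
CD59: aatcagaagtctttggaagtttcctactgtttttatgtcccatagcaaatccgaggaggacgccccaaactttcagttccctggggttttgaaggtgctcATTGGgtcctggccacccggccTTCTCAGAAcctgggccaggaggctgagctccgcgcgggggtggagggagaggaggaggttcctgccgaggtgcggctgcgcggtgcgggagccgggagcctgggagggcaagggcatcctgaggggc
On both strands, 10 motifs were searched: the GC box (GGGCGG), the CCAAT box (CCAAT), the TATA box (TATAAA), the cyclic AMP response element (TGACGTCA), AP-1 (TGANTCA), NF-kB, the hypoxia response element core (ACGTG), the antioxidant response element (TGACNNNGC), the gamma-activated sequence (TTCNNNGAA) and the interferon response element. No printed match overlaps another. The CD55 window held 1 match, a GC box from 46 to 41 bases before the start, a motif found in 42.6% of the 35116 promoters of the table. The CD46 window held 2 GC boxes and 1 CCAAT box (32% of promoters). The CD59 window held 1 CCAAT box and 1 gamma-activated sequence (6.57% of promoters). CD59 has 4 listed starts and CD46 has 2, and the arrays do not show which start was used. These matches are descriptions of letters and not evidence of binding.

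All 3 CD55 probe sets were far brighter in the PARK2 line than in the control line. Probe set 201925_s_at had 542, 647 and 623 intensity units in PARK2 replicates 1 to 3, against 20.3, 17.3 and 11.75 in control replicates 1 to 3. Probe set 1555950_a_at had 256, 293 and 281 in PARK2 cells, against 7.72, 4.31 and 2.38 in control cells. Probe set 201926_s_at had 182, 212 and 223 in PARK2 cells, against 10.2, 5.23 and 7.82 in control cells. On each probe set the lowest PARK2 array lay far above the highest control array, and the PARK2 arrays differed little among themselves.

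The ratio of group means for CD55 was 36.7 on 201925_s_at, 57.6 on 1555950_a_at and 26.5 on 201926_s_at. On the log2(intensity + 16) scale used throughout, where 16 is a pseudocount, the difference was 4.26 (SE 0.17) on 201925_s_at, 3.82 (SE 0.18) on 1555950_a_at and 3.22 (SE 0.18) on 201926_s_at (n = 3 per group). The order of the probe sets thus differs between the ratio and the log2 scale, because the pseudocount weighs most on the dimmest control values. With a pseudocount of 1 the log2 difference of 201925_s_at was 5.14 and with 64 it was 3.05. Control CD55 means were 16.5, 4.81 and 7.75 on these probe sets, and the dimmest probe set that entered the tests had a mean of 9.95 over all 6 arrays. Without detection calls it was not determined whether CD55 was measured above background in control cells, so the fold has no firm upper size. The 2 dimmer CD55 probe sets passed the filter on dim signals (a mean log2 value of at least 4.69) only through the PARK2 arrays. In RNA from bulk cells, fewer cells expressing a gene and less RNA per cell cannot be told apart.

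Among the 13720 genes with a tested probe set, each read on its brightest one, CD55 had the 8th highest log2 difference, the measure it was chosen by. By same-numbered arrays the log2 difference of 201925_s_at was 3.94, 4.32 and 4.53 for replicates 1, 2 and 3. The smallest difference on each probe set was in replicate 1.

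**Figure D1:**
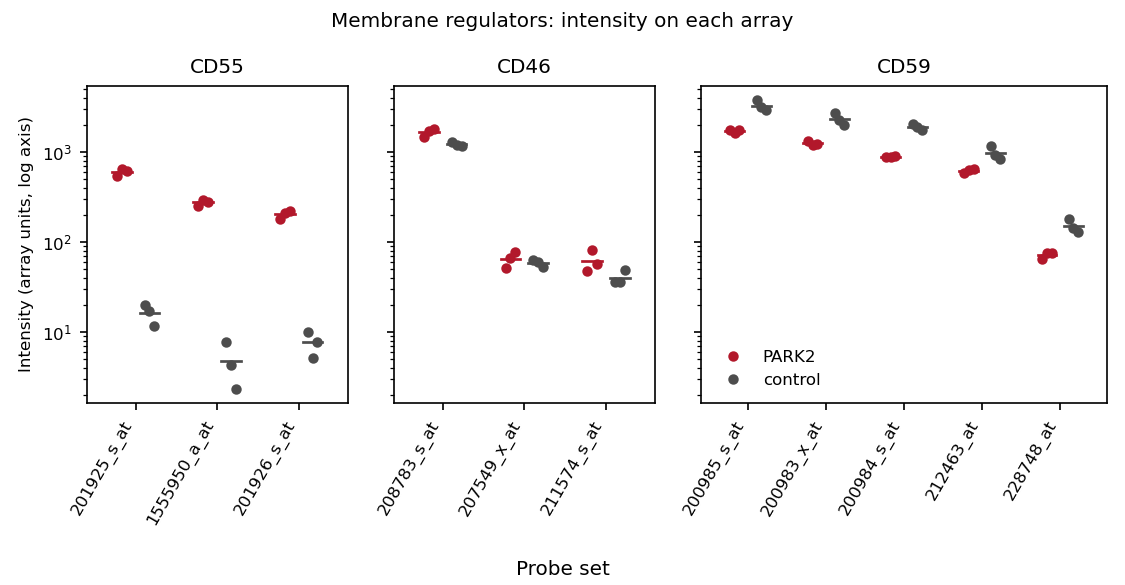
Intensity (array units, log axis) of every probe set of CD55, CD46 and CD59 on each array, with PARK2 arrays (red) left of control arrays (grey) and a bar at each group mean (n = 3). CD55 lay at 182 to 647 in PARK2 cells and 2.38 to 20.3 in control cells, CD59 was lower in PARK2 cells on all 5 probe sets, and CD46 was higher on its brightest probe set.

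CD59, the regulator of the terminal step, fell in PARK2 cells on all 5 of its probe sets, to between 0.469 and 0.635 of the control mean. On its brightest probe set, 200985_s_at, CD59 had 1781, 1618 and 1760 intensity units in PARK2 cells, against 3750, 3179 and 2918 in control cells. On 200984_s_at it had 891, 873 and 915 in PARK2 cells, against 2074, 1897 and 1743 in control cells. The groups did not overlap on any of the 5 probe sets, and control replicate 1 was the highest array on each.

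The log2 fold change of CD59 (PARK2 over control) was -0.92 (SE 0.12, adjusted p 3.84e-05 in limma) on 200985_s_at and -1.08 (SE 0.13, adjusted p 8.03e-06) on 200984_s_at. It was -0.88 (adjusted p 0.000126) on 200983_x_at, whose suffix _x_at marks probes that may also read other transcripts. It was -0.91 (adjusted p 0.00125) on 228748_at, at 72.8 ± 7.17 units in PARK2 cells and 151 ± 25.1 in control cells (SD, n = 3 each). The smallest change was on 212463_at, at 618 ± 31.03 units in PARK2 cells and 973 ± 173 in control cells (log2 fold change -0.63, SE 0.15, adjusted p 0.00569). All 5 calls held under the 15 alternatives run on each probe set. Of 648 genes with 5 or more tested probe sets, 9 (1.39%) were lower on every one of them, CD59 included.

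CD46, the factor I cofactor, was higher in PARK2 cells on its brightest probe set, by less than CD55. Probe set 208783_s_at had 1456, 1720 and 1817 intensity units in PARK2 cells, against 1288, 1215 and 1173 in control cells. The groups did not overlap, with the lowest PARK2 array close to the highest control array. The log2 fold change was 0.43 (SE 0.13, adjusted p 0.0261 in limma). The call was lost without control replicate 2 (adjusted p 0.103) or 3 (0.0619), and without PARK2 replicate 2 (0.131) or 3 (0.168). It held without replicate 1 of either group.

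The other CD46 probe sets did not pass. Probe set 211574_s_at had 47.4, 81.3 and 57.4 units in PARK2 cells, against 35.9, 36.4 and 49.1 in control cells (log2 fold change 0.45, SE 0.20, adjusted p 0.144 in limma). Probe set 207549_x_at had 51.8, 66.4 and 77.1 in PARK2 cells, against 64.2, 60.1 and 53.1 in control cells (0.10, SE 0.18, adjusted p 0.786). Both overlapped between groups. As the mean of its 3 probe sets CD46 was at 0.33 (adjusted p 0.105).

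**Figure D2:**
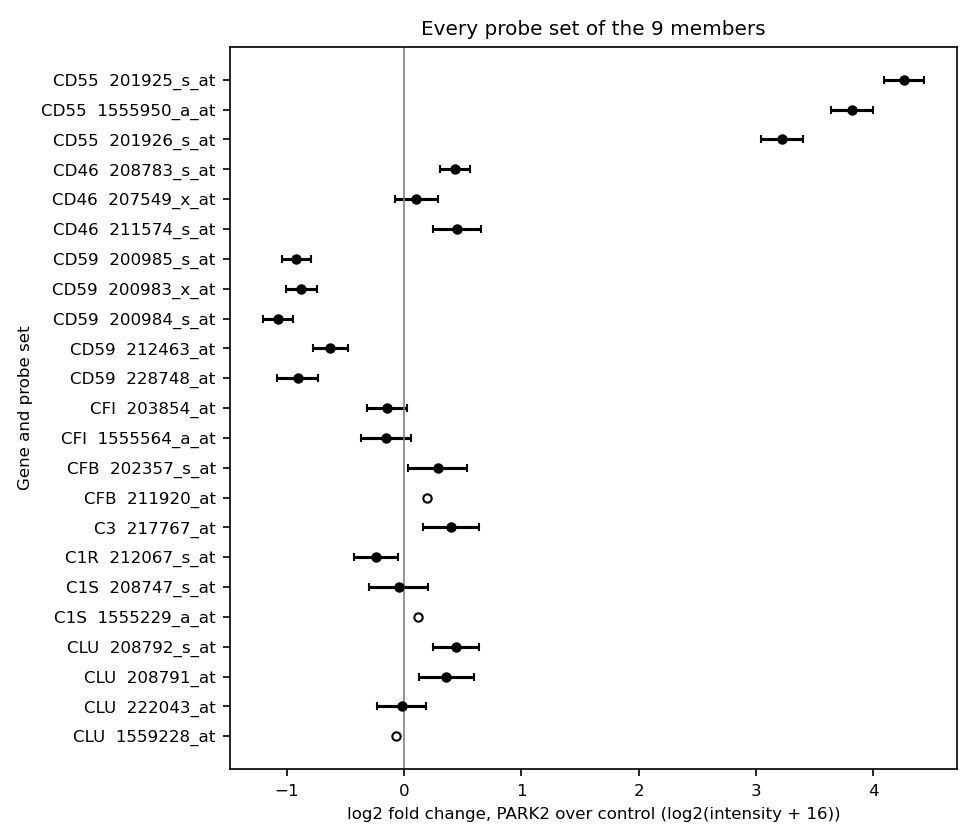
The log2 fold change, PARK2 over control, of all 23 member probe sets on the log2(intensity + 16) scale, with bars of 1 standard error from limma. Open circles are the 3 probe sets under the filter on dim signals, which were not tested. CD55 stands at 3.22 to 4.26, CD59 at -1.08 to -0.63 and the remaining members between -0.24 and 0.45.

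Of the 20 member probe sets other than those of CD55, 17 passed the filter on dim signals, and of these 1 was higher (CD46), 5 were lower (CD59) and 11 did not pass. Over all 32768 probe sets tested, 7.96% were higher and 9.83% lower, together 17.8%. The groups did not overlap for 1 member probe set in the upward and 5 in the downward direction, against 15.2% and 17.9% of all tested probe sets. The probe sets of a gene read the same transcripts and are not separate observations, and since CD55 of the same comparison chose the set, nothing is read from these shares.

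The soluble members showed no difference past the threshold. CFI, the protease that works with CD46, had 405, 470 and 431 intensity units on 203854_at in PARK2 cells, against 647, 418 and 417 in control cells (log2 fold change -0.15, SE 0.17, adjusted p 0.639 in limma). The high control value came from replicate 1, and without it the change was 0.06 (adjusted p 0.786). On 1555564_a_at CFI had 67.3, 132.5 and 137 in PARK2 cells, against 121, 126 and 118 in control cells (-0.15, SE 0.21, adjusted p 0.701), where PARK2 replicate 1 was low.

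CLU, clusterin, did not pass on any of its 3 tested probe sets. On 208792_s_at CLU had 146, 136 and 155 intensity units in PARK2 cells, against 139, 108 and 71.8 in control cells (log2 fold change 0.44, SE 0.20, adjusted p 0.144 in limma). On 208791_at it had 90.3, 137 and 107.5 in PARK2 cells, against 137, 71.3 and 55.4 in control cells (0.36, SE 0.24, adjusted p 0.354). Control replicate 1 was again the highest control array on both. Without it CLU passed on 208792_s_at (0.63, adjusted p 0.0317) and on 208791_at (0.68, adjusted p 0.0345). The other tested CLU probe set, 222043_at, was at 14.0 ± 2.41 in PARK2 cells and 14.5 ± 2.36 in control cells (-0.02, adjusted p 0.967). The last, 1559228_at, was under the filter.

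The early components were dim. C1R had 50.1, 33.4 and 39.2 intensity units in PARK2 cells, against 55.45, 49.3 and 47.2 in control cells (212067_s_at, log2 fold change -0.24, SE 0.19, adjusted p 0.455 in limma). C1S had 18.2, 21.2 and 19.7 in PARK2 cells, against 33.1, 27.9 and 7.225 in control cells (208747_s_at, -0.05, SE 0.25, adjusted p 0.934). The PARK2 arrays overlapped the control arrays for both, and for C1S the spread lay almost wholly in the control arrays. Its second probe set, 1555229_a_at, stayed at 4.64 units or less on every array and was not tested.

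C3 and factor B were near the lower end of what was tested. C3 passed the filter only through the PARK2 arrays (mean log2 value 4.93, against 4.54 in control arrays), so its test is not independent of its difference. C3 had 16.4, 15.1 and 12.3 intensity units in PARK2 cells, against 15.7, 4.24 and 3.51 in control cells (217767_at, log2 fold change 0.40, SE 0.24, adjusted p 0.297 in limma). Its control replicate 1 lay among the PARK2 arrays and apart from the other control arrays. CFB had 42.9, 33.9 and 28.0 in PARK2 cells, against 46.4, 12.2 and 24.5 in control cells (202357_s_at, 0.29, SE 0.25, adjusted p 0.511). Its other probe set, 211920_at, was under the filter, at 6.37 ± 4.46 in PARK2 cells and 3.33 ± 1.38 in control cells. With array weights, which raise or lower the part of each array in the fit, C3 (0.57, adjusted p 0.00883, with the same limit), CFB (0.74, adjusted p 0.00274), CD46 on 211574_s_at (0.62, adjusted p 0.00237) and CLU on 208792_s_at (0.39, adjusted p 0.0159) and 208791_at (0.60, adjusted p 0.00317) passed. That fit called 7623 probe sets higher in place of 2607.

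**Figure D3:**
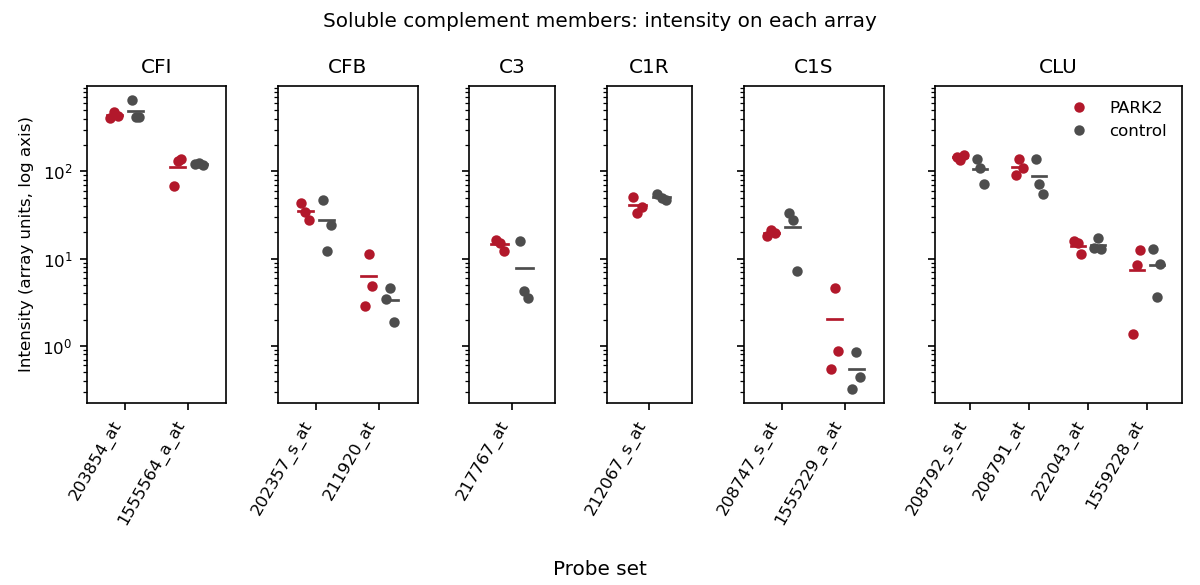
Intensity (array units, log axis) of every probe set of CFI, CFB, C3, C1R, C1S and CLU on each array, with PARK2 arrays (red) left of control arrays (grey) and a bar at each group mean (n = 3). The groups overlap on every probe set, and values under about 10 units belong to signals near the filter on dim probe sets.

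The remaining complement genes were mostly too dim to test. Of 50 genes of the classical, lectin, alternative and terminal pathways, further regulators and receptors, 43 could be read on a probe set naming them alone and 30 of these were under the filter. Among these 30 were the C1q chains C1QA, C1QB and C1QC, properdin (CFP), the C1 inhibitor gene SERPING1 and the receptors CR1 and CR2, with group means of at most 11.9 intensity units. Of the 13 tested genes 1 was higher and 1 lower (15.4% called), against 10.4% higher and 12.6% lower (together 23%) of the 13720 genes read on their brightest probe set. Their median log2 fold change was 0.25, against -0.0026 for all genes. Of the 13, C4BPA, C8B, CPN1 and MASP1 passed the filter only through the PARK2 arrays and C3AR1 and C6 only through the control arrays, so the median partly follows the filter.

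C5, whose product starts the membrane attack complex, had 74.5, 73.3 and 73.8 intensity units in PARK2 cells, against 59.7, 31.5 and 32.4 in control cells (log2 fold change 0.69, SE 0.20, adjusted p 0.0245 in limma). The PARK2 arrays were nearly equal and all above the control arrays. The call held without control replicate 1 (adjusted p 0.00364) but was lost without any other array (0.0518 without PARK2 replicate 2, 0.0524 without PARK2 replicate 1, 0.0654 without PARK2 replicate 3, 0.0911 without control replicate 3 and 0.113 without control replicate 2). C1QBP, a mostly mitochondrial protein first known for binding C1q, had 3925, 4048 and 3948 units in PARK2 cells, against 6810, 5843 and 6055 in control cells (-0.65, SE 0.10, adjusted p 0.000253). It was lower on both of its probe sets.

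The other 11 tested complement genes did not pass, and they lay on both sides of 0. Below 0 were C3AR1 (log2 fold change -0.57, adjusted p 0.108 in limma), ITGAM (-0.23, 0.541) and C6 (-0.22, 0.577). For C3AR1 and C6 the filter limit given above applies. The lectin COLEC12 was at 0.45 (adjusted p 0.159 in limma) and the lectin-pathway protease MASP2 at 0.25 (0.569) on the log2 scale, C4BPA, a chain of the plasma C4b-binding protein, was at 0.48 (0.212) and CFHR2, a factor H-related gene, at 0.36 (0.312). ADGRE5, named here outside the rule because it codes for CD97, a receptor that binds CD55, had 562 ± 58.9 units in PARK2 cells and 460 ± 82.8 in control cells (SD, n = 3 each; 0.29, adjusted p 0.252).

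The nearest tested genes around CD55 differed far less than CD55. As CD55 was chosen for its large difference, that contrast was built in and nothing is read from it. On chromosome 1 the order of coding genes in RefSeq is C4BPB, C4BPA, CD55, CR2, CR1, CR1L and CD46, the cluster of regulators of complement activation. C4BPB, CR2, CR1 and CR1L were not tested, so the coding genes between CD55 and CD46 were not compared. Of the 16 nearest tested genes (8 on each side) 2 were higher and 2 lower, against 10.4% higher and 12.6% lower of all genes, and their median log2 fold change was 0.01. The nearest tested gene before CD55 was C4BPA, which passed the filter only through the PARK2 arrays (0.48, SE 0.25, adjusted p 0.212 in limma), and the nearest after it was CD46 (0.43). PLXNA2, a semaphorin receptor, was higher (0.63, adjusted p 0.0127). FCMR, a receptor for IgM (-0.84, adjusted p 0.0105), and G0S2, an inhibitor of fat breakdown (-0.996, adjusted p 0.0125), were lower. G0S2 passed the filter only through the control arrays, so a difference was built into its passing. The call of PLXNA2 was lost without PARK2 replicate 3 (adjusted p 0.0553), that of FCMR without control replicate 1 (0.0596) or PARK2 replicate 2 (0.0559), and that of G0S2 without control replicate 1 (0.0901).

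**Figure D4:**
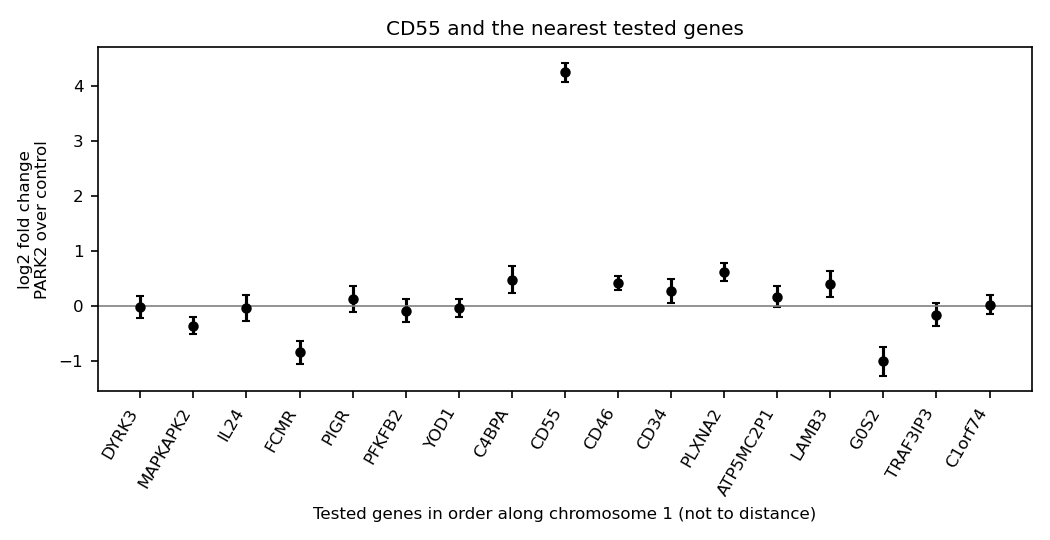
The log2 fold change, PARK2 over control, of CD55 and of the 8 nearest tested genes on each side of it along chromosome 1, in order and not to distance, with bars of 1 standard error from limma. CD55, which was chosen for its large difference, is at 4.26 and its 16 neighbours lie between -0.996 and 0.63.

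The genes most like CD55 over the 6 arrays were LOX, MAGEA6, FAM133A, ADAMTS1 and AMPH. Likeness was the root mean square difference of log2 values after each probe set's own mean was subtracted, which was 0.068 for LOX, 0.099 for MAGEA6, 0.11 for FAM133A, 0.12 for ADAMTS1 and 0.15 for AMPH. LOX, which codes for a collagen cross-linking enzyme, had 596.5, 703 and 716 units in PARK2 cells, against 25.9, 23.4 and 18.7 in control cells. FAM133A had 565, 595 and 700 in PARK2 cells, against 17.2, 20.4 and 11.4 in control cells. The log2 differences of these 5 genes were 4.02 to 4.30, and the measure by its construction finds genes with a difference close to that of CD55. The MAGEA6 probe set is marked _x_at and may also read related MAGE genes.

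Of 28 genes that build the GPI anchor, on which CD55 and CD59 depend, all were tested, and 7 fell and 1 rose, against 12.6% lower and 10.4% higher of all genes, and their median log2 fold change was -0.23. PIGA, the catalytic subunit of the enzyme for the first step, had 258, 301 and 305 intensity units in PARK2 cells, against 557, 495 and 525 in control cells (log2 fold change -0.83, SE 0.15, adjusted p 0.000566 in limma). GPAA1, a subunit of the transamidase that joins the anchor to proteins, had 232.5, 245 and 272 in PARK2 cells, against 605, 560 and 330 in control cells (-0.91, SE 0.19, adjusted p 0.00277), and fell on all 3 of its probe sets. The groups did not overlap for either gene.

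PIGL, which codes for the deacetylase of the second step, fell by 0.74 on the log2 scale (adjusted p 0.0097 in limma) on 1 of its 4 tested probe sets. PIGN, which adds a side group to the anchor, fell by 0.72 (adjusted p 0.00974). Without PARK2 replicate 2 its log2 fold change was -0.62 and the call was lost (adjusted p 0.0575). Without that array 4 of the 28 were lower and 0 higher by limma, with 4 higher at an unadjusted p under 0.05. Under quantile normalization 10 were lower and 5 higher, and with array weights 13 were lower and 6 higher. The counts over all probe sets tested rose as well. They were 4153 lower and 4066 higher under quantile normalization, and 6662 lower and 7623 higher with array weights. The main fit had 3221 lower and 2607 higher. The higher gene of the main fit, PIGG (0.53, adjusted p 0.023 in limma), adds a side group to the anchor. It was higher on 1 of its 3 tested probe sets. PIGG is outside the naming rule and was named after its values were seen. The count of higher genes was 4 without control replicate 1, and 0 without control replicate 2 or 3 or PARK2 replicate 3 (3, 3 and 2 at an unadjusted p under 0.05).

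Other GPI-anchored surface proteins moved both ways. Of 26 genes 20 passed the filter, and of these 6 rose and 3 fell (45% called, against 23% of all genes), with a median log2 fold change of -0.0032. EFNA5, an ephrin, had 107, 125 and 141 intensity units in PARK2 cells, against 14.9, 12.1 and 7.79 in control cells (2.34, SE 0.19, adjusted p 1.08e-07 in limma). GPC6, a glypican, had 689, 734 and 829 in PARK2 cells, against 204, 167 and 162 in control cells (1.99, SE 0.15, adjusted p 5.65e-08). CD24, a heavily glycosylated surface protein, had 95.6, 109 and 106 in PARK2 cells, against 18.3, 24.4 and 22.1 in control cells (1.67, SE 0.18, adjusted p 3.07e-06). LY6E went the other way, with 2.70, 1.26 and 1.69 in PARK2 cells, against 60.6, 23.1 and 16.25 in control cells (-1.36, SE 0.27, adjusted p 0.00186).

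EFNA5, GPC6 and CD24 were higher on every tested probe set of theirs. LY6E passed the filter through the control arrays alone, where it was bright, so a difference was built into its passing. The list was chosen with earlier results known, and its share of calls is a description.

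Cytokine receptors, transcription factors and related genes known to induce complement genes were called at a share near that of all genes. Of 22 such genes 21 could be read on a probe set naming them alone, and all 21 were tested. Of these 2 rose and 2 fell (19% called, against 23% of all genes), and their median log2 fold change was 0.13. LIFR, the receptor for leukaemia inhibitory factor, had 405, 409 and 464 intensity units in PARK2 cells, against 155.5, 111 and 105 in control cells (1.68, SE 0.17, adjusted p 1.50e-06 in limma). SOCS3, a feedback inhibitor of that pathway, had 467, 461 and 529 in PARK2 cells, against 354, 289 and 256 in control cells (0.68, SE 0.16, adjusted p 0.00534). LIFR was higher on 3 of 5 probe sets and SOCS3 on 1 of 3.

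IL6R, the interleukin-6 receptor, had 29.1, 23.35 and 38.1 intensity units in PARK2 cells, against 101, 82.15 and 55.8 in control cells (-1.03, SE 0.21, adjusted p 0.00198 in limma). STAT3, the transcription factor of the acute-phase response, was at -0.37 (SE 0.12, adjusted p 0.0473). It was lower on 1 of its 4 tested probe sets. STAT3 did not pass with the replicate number as a block (adjusted p 0.0599), which left 1 gene lower. Nor did it pass without control replicate 2 (0.181) or without PARK2 replicate 1, 2 or 3 (0.105, 0.171 and 0.164). Under quantile normalization 9 of the 21 were higher and 4 lower, without control replicate 1 it was 7 higher and 2 lower, and without control replicate 3 it was 2 higher and 4 lower. Over all probe sets tested, 4066 were higher and 4153 lower under quantile normalization, against 2607 and 3221 in the main fit. Without control replicate 1, 3979 probe sets were higher.

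**Figure D5:**
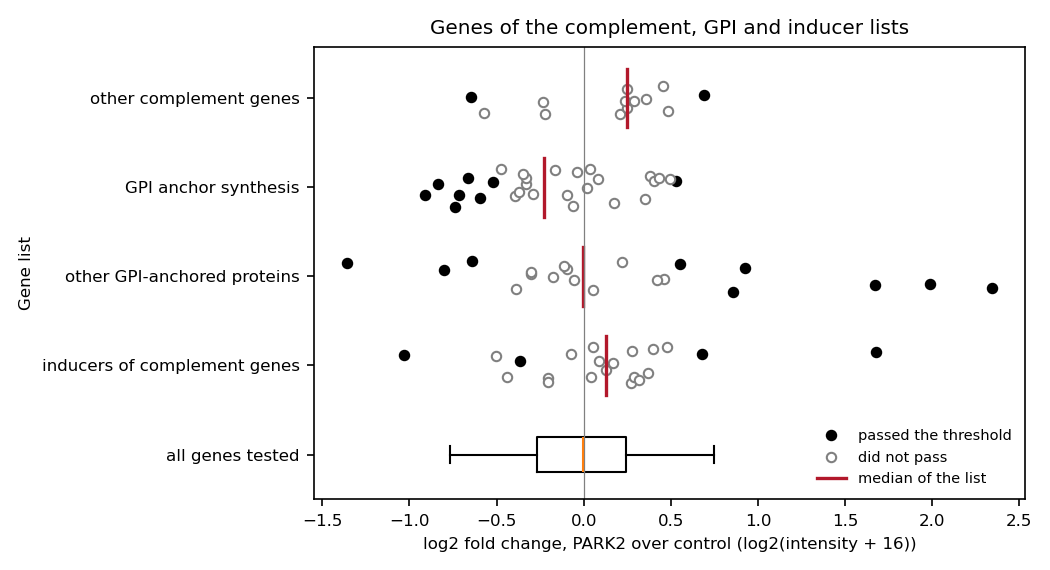
The log2 fold change, PARK2 over control, of each tested gene in 4 gene lists, read on its brightest probe set, with filled points for genes past limma's threshold and a red line at the median of each list. The box shows all 13720 genes (quartiles, and whiskers at the 5th and 95th percentiles, -0.77 and 0.75), and the complement and GPI synthesis medians lie at 0.25 and -0.23.

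The 6 arrays had median intensities of 16.2 to 19.3, and correlated at 0.982 to 0.990 within groups and 0.957 to 0.964 between them. Trimmed mean intensities were 141 to 155 in PARK2 and 137 to 168 in control arrays, with control replicate 1 the highest. The 3′ to 5′ ratio of actin probe sets was 3.53 to 5.66 in PARK2 and 3.83 to 5.31 in control arrays, highest in replicate 1 of both groups. That of GAPDH probe sets was 1.02 to 1.06 in PARK2 and 1.04 to 1.17 in control arrays, lowest in replicate 1 of both groups. Of 10 markers of glioma cells and astrocytes 9 passed the filter, and VIM was at 8921 ± 523 units in PARK2 cells and 8898 ± 444 in control cells. AQP4, an astrocyte water channel, lay under the filter, at 4.25 units in PARK2 cells and 4.96 in control cells. S100B (log2 fold change -1.39, adjusted p 6.6e-05 in limma) and SLC1A3 (-0.72, adjusted p 0.00343) were lower in PARK2 cells. GFAP was at 0.53 (adjusted p 0.0549) and SOX2 at 0.30 (adjusted p 0.0651), both without passing. All 9 microglia and macrophage markers with a probe set of their own, among them PTPRC, CSF1R and CX3CR1, lay under the filter, with summed intensities of 48.5 to 59.4 in PARK2 and 39.4 to 63.1 in control arrays. Hepatocyte markers summed to 50.6 to 58.7 in PARK2 and 40.3 to 59.4 in control arrays (2 of 5 under the filter, with SERPINA1 at 0.30 and APOA1 at -0.12). SERPINA1 passed the filter only through the PARK2 arrays and APOA1 only through the control arrays. Endothelial markers summed to 118 to 150 in PARK2 and 113 to 122 in control arrays (3 of 5 under the filter, with KDR at 0.08 and PECAM1 at -0.04). Fibroblast markers (1 of 5 under the filter) summed to 5070 to 5942 in PARK2 and 3548 to 4247 in control arrays, mostly through the collagen gene COL1A2 (log2 fold change 0.56, adjusted p 0.00179), while COL1A1 was at -0.32 and DCN at -0.04 without passing. The part of these marker differences in the values of the complement genes was not tested.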

How the data were processed

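RNA of 6 U251 samples (3 PARK2, 3 control) was hybridised to Affymetrix arrays. What was deposited is 1 linear intensity for each probe set and array. Per the submitters' processing notes, MAS5 and GCOS were used, and their versions, the scaling and any detection calls are not given in the sources used here. Intensities were taken as log2(intensity + 16). Of 54675 probe sets 62 controls were left out. The 32768 with a mean log2 value at or above the 40th percentile were tested with limma 3.58.1 (R 4.3.3, lmFit and eBayes with an intensity trend), PARK2 over control, with p-values adjusted by Benjamini-Hochberg over all of them and a threshold of 0.05. The fit was tested on simulated data with planted changes and independent normal noise. These data held no deviations shared between arrays, so they do not check the p-values under such sharing.

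In the platform annotation 41091 probe sets had 1 gene, 1801 several and 11721 none. List genes and neighbours were read on their brightest tested probe set. Named were all members, up to 4 called genes per list by fold change (otherwise the 2 with the smallest p), the nearest and the called neighbours, and the 5 genes most like CD55. Other genes were named outside this rule, for their role or after their values were seen. The members and lists were chosen with earlier results of these data known. The level of the PARK2 transgene is not reported here, so the labels were taken as given.

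Deviations from the group means correlated between PARK2 and control arrays of the same number (r = 0.38, 0.16 and 0.12). Arrays of different numbers gave -0.27 to 0.16, so the distinction is clear only for replicate 1. The main fit, which gave the p-values unless another setting is named, had no term for the replicate number. Because every same-number value exceeded 0.1, pairing by number was run as an alternative (the replicate block), on the evidence of the data alone. Alternatives covered the pseudocount, filter, normalization, array weights, the trend, the choice of probe set, the replicate block and leaving out each array. No 2 arrays were identical, and the number of arrays limits the precision.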

Additional observations from a re-analysis of the deposited data

How the results depend on the processing

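The direction of CD55 and the calls of CD59 held under every alternative run. The log2 difference of CD55 on 201925_s_at was 5.14 with a pseudocount of 1 and 3.05 with 64, and 4.15 to 4.35 with single arrays left out. The causes of the changes below were not tested. With the replicate block 6387 probe sets were called in place of 5828. STAT3 was lost, which left 1 inducer lower, and no other call changed among the named genes followed through the alternatives. Genes named outside that group, such as PIGG, GFAP, SOX2, COL1A1 and DCN, were not followed there. CD46 on 208783_s_at (0.43) did not pass without the intensity trend (adjusted p 0.0942) or without the filter (0.0539), and lay at 0.37 to 0.52 with single arrays left out. Array weights moved most counts: 7623 probe sets were higher and 6662 lower; 5 complement genes were higher and 3 lower, 6 GPI synthesis genes higher and 13 lower, 9 inducers higher and 4 lower, 5 other GPI-anchored genes lower and 5 neighbours higher. With them C3 was at 0.57, CFB at 0.74, CLU at 0.39 and CFI, reversed, at 0.066. Quantile normalization called 4066 probe sets higher and 4153 lower, with 5 GPI synthesis genes and 9 inducers higher and 4 inducers lower. With 1 probe set per gene in the fit, 4 GPI synthesis genes and 4 inducers were higher, and 4 inducers lower. Without the trend 0 GPI synthesis genes were higher by limma (3 at an unadjusted p under 0.05), 1 inducer was lower and 1 neighbour higher. Without the filter 0 complement genes (2 unadjusted) and 0 GPI synthesis genes (5 unadjusted) were higher by limma, 1 inducer was lower, 1 neighbour was higher and 0 neighbours were lower (3 unadjusted). With the filter at the 60th percentile 2 GPI synthesis genes were higher and 1 neighbour lower. Median centring gave 3 GPI synthesis genes and 4 inducers higher, and the mean of a gene's probe sets 1 inducer and 1 neighbour higher. C1S reversed to 0.039 with a pseudocount of 1. With single arrays left out, 1620 (without PARK2 replicate 3) to 3979 (without control replicate 1) probe sets were higher and 2269 to 3399 lower; 0 to 1 complement genes were higher (1 to 3 unadjusted where 0) and 1 to 2 lower; 0 to 4 GPI synthesis genes were higher and 4 to 9 lower; 5 to 9 other GPI-anchored genes were higher and 2 to 3 lower; 2 to 7 inducers were higher and 1 to 4 lower; 0 to 3 neighbours were higher (2 unadjusted where 0) and 0 to 2 lower (3 unadjusted where 0). In those fits C1S ranged over -0.38 to 0.16, CFI over -0.25 to 0.056 (203854_at) and -0.31 to 0.13 (1555564_a_at), CLU over 0.22 to 0.63 (208792_s_at) and -0.061 to 0.047 (222043_at), CD46 over -0.0040 to 0.22 (207549_x_at), APOA1 over -0.25 to 0.092, KDR over -0.089 to 0.19 and PECAM1 over -0.10 to 0.059. Signals near the filter, such as C3, CFB and C1S, are limited by the unknown background.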
